A study of Mus musculus with 18 samples.

Results

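Txnip and 4 related arrestin-domain genes, Arrdc1, Arrdc2, Arrdc3 and Arrdc4, were followed through a time course of metabolic RNA labelling in RAW264.7 cells, a mouse macrophage line transformed by Abelson leukaemia virus. The 5 genes were taken by name from the 14002 genes that the deposited tables list, and Txnip had been selected on its converted share in these libraries, which rose very fast, so its labelling is given as a description with no test. Cells received 4-thiouridine (4sU), at a dose whose unit is garbled in the labels and is not printed here; 4sU is a uridine analogue built into new RNA and, after chemical treatment, read as C in place of T. Experiment 1 held cells with no 4sU (0 min) and cells labelled for 20, 40, 60, 90 and 120 min. Experiment 2 held cells labelled for 20, 30 and 40 min. Each of the 9 lysates gave a library of cytoplasmic RNA fragmented by alkali (input) and a library of fragments protected by single ribosomes (footprints), 18 libraries in all. All cells were unstimulated as far as the labels say, all lysates contained cycloheximide, which stalls ribosomes, and the only control without 4sU was the single lysate of experiment 1. Only the 20 and 40 min times had a lysate in each experiment. Nothing in the labels says that lysates of 1 experiment came from separately grown cultures, so the p-values below measure the spread between these lysates. In the test of conversion in footprints against input that spread was pooled over genes, so its p-values do not reflect each gene's own spread.

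The alpha-arrestins are adaptor proteins with an arrestin fold. Arrdc1 to Arrdc4 carry PPxY motifs that bind the WW domains of NEDD4-family ubiquitin ligases, and through these they direct membrane proteins to ubiquitination and endocytosis. Txnip, the thioredoxin-interacting protein, binds and inhibits thioredoxin and restrains glucose uptake by way of the transporters GLUT1 and GLUT4. Its transcription follows the glucose supply through the factors MondoA and ChREBP with their partner Mlx, and Arrdc4 is regulated by the same factors. Both the Txnip mRNA and the Txnip protein are known to be short-lived. Arrdc1 is known as the organiser of small vesicles that bud from the plasma membrane with the help of the ESCRT protein Tsg101.

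The upstream sequences of Txnip and 3 relatives are shown because the glucose-responsive element of Txnip lies there and the members differ in it. They are the 250 bases before the RefSeq start site on GRCm38.p6, written 5′ to 3′ on the strand of the gene. Capitals mark matches on either strand to 3 motifs. The first is CACGAG, an E-box-like box. The second is CACGTG, the E-box. The last is CCAAT. A match on the other strand appears as the reverse complement. RefSeq held 7 entries for the 5 genes, 3 of them for Arrdc3, of which the first is shown. Positions count back from the start site, with the base just before it at -1.
Txnip, chr3:96557707-96557956, plus strand: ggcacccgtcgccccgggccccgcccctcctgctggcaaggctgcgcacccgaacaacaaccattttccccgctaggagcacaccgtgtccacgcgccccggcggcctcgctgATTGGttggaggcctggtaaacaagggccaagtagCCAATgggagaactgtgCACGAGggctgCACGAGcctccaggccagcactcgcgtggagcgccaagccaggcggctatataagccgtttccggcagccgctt
Arrdc1, chr2:24935282-24935531, minus strand: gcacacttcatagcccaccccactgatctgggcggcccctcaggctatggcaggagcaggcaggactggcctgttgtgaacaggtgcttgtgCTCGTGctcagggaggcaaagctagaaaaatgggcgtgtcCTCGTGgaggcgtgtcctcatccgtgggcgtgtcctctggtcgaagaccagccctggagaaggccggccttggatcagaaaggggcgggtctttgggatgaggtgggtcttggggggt
Arrdc3, chr13:80883134-80883383, plus strand: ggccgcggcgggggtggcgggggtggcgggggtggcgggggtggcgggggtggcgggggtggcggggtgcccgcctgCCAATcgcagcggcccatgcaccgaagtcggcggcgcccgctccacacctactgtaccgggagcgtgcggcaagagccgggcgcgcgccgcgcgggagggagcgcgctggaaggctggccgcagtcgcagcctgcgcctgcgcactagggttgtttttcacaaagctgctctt
Arrdc4, chr7:68749239-68749488, minus strand: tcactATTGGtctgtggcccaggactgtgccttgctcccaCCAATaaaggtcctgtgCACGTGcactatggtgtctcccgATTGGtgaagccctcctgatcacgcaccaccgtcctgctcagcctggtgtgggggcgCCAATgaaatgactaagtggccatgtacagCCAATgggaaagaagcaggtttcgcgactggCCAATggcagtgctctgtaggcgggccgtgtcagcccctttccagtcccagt

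In the Txnip sequence CACGAG stood at -85 and again at -74, with 5 letters between the copies. Exactly this arrangement was found in 1 of the 32851 mouse promoter entries searched, that of Txnip, while a single CACGAG was present in 5.37% of them. The string searched was spelled as in Txnip, so that match was given in advance. How often a string of this length turns up by chance was not computed. Arrdc1 held 2 copies on the other strand at -158 and -118, farther apart, and Arrdc2 held 1 copy. Neither CACGAG nor CACGTG was found in the Arrdc3 window, and Arrdc4 held 1 CACGTG at -193, a motif present in 6.02% of all entries. CCAAT matched 2 times in Txnip, 3 times in Arrdc2, 1 time in the Arrdc3 entry shown, 6 times in Arrdc4 and 0 times in Arrdc1, and 33.8% of all entries held it at least once. Other spellings of these boxes were not searched. A match describes the letters only.

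The pentamer ATTTA, the core of AU-rich elements that are known for speeding mRNA decay, was counted in the annotated 3′ UTRs. Txnip held 0 copies in 1354 bases, Arrdc1 0 in 254 bases and Arrdc2 0 in 812 bases. Arrdc3 held 8 copies in 2616 bases, or 3.06 per kb, a density above that of 78.9% of 7490 genes with enough reads for the labelling measures, whose median was 1.44 per kb. Arrdc4 held 4 copies in 2482 bases. Of those 7490 genes 28.6% held no ATTTA at all, so its absence from Txnip is common among them.

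Input libraries held 6230562 to 48139330 reads and footprint libraries 11771175 to 87536081, with the deeper ones all in experiment 2. The share of all reads with at least 1 T-to-C conversion was 0.289% in unlabelled input and 8.07% in input at 120 min, and 0.298% and 5.54% in footprints. All 10 macrophage markers were listed, with a summed level of 6907 to 8788 CPM (counts scaled to a common library total) in input and 9935 to 13452 CPM in footprints, led by Lyz2. The tables held 7 of 22 markers for other cell types, whose summed level reached at most 0.748 CPM in input and 1.17 CPM in footprints.

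Txnip (ENSMUSG00000038393; chr3:96557957-96561883, plus strand, GRCm38) was by far the most abundant of the 5 mRNAs, and Arrdc4 was barely detected. The mean level over the 9 input libraries, as CPM scaled by TMM, was 169 ± 41.7 (SD, n = 9) for Txnip, 23.0 ± 4.19 for Arrdc1, 3.85 ± 1.19 for Arrdc3, 3.59 ± 0.940 for Arrdc2 and 0.895 ± 0.613 for Arrdc4. Such levels are relative to the library, and fewer cells with an mRNA cannot be told apart from less of it per cell. Per kb of coding sequence, the input levels were 142 CPM for Txnip, 17.7 for Arrdc1, 3.10 for Arrdc3, 2.94 for Arrdc2 and 0.719 for Arrdc4. Arrdc2 and Arrdc3 did not differ beyond their spread, and their order turned over per kb of transcript, with 1.52 CPM for Arrdc2 and 0.938 for Arrdc3. Footprint levels per kb of coding sequence followed the same order, at 255, 16.2, 2.71, 1.73 and 0.373 CPM. The files give reads per gene without positions or strand, and Txnip overlaps the antisense gene Gm15441 while Arrdc3 overlaps 1700023H06Rik, so reads of these partners could be included.

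**Figure D1:**
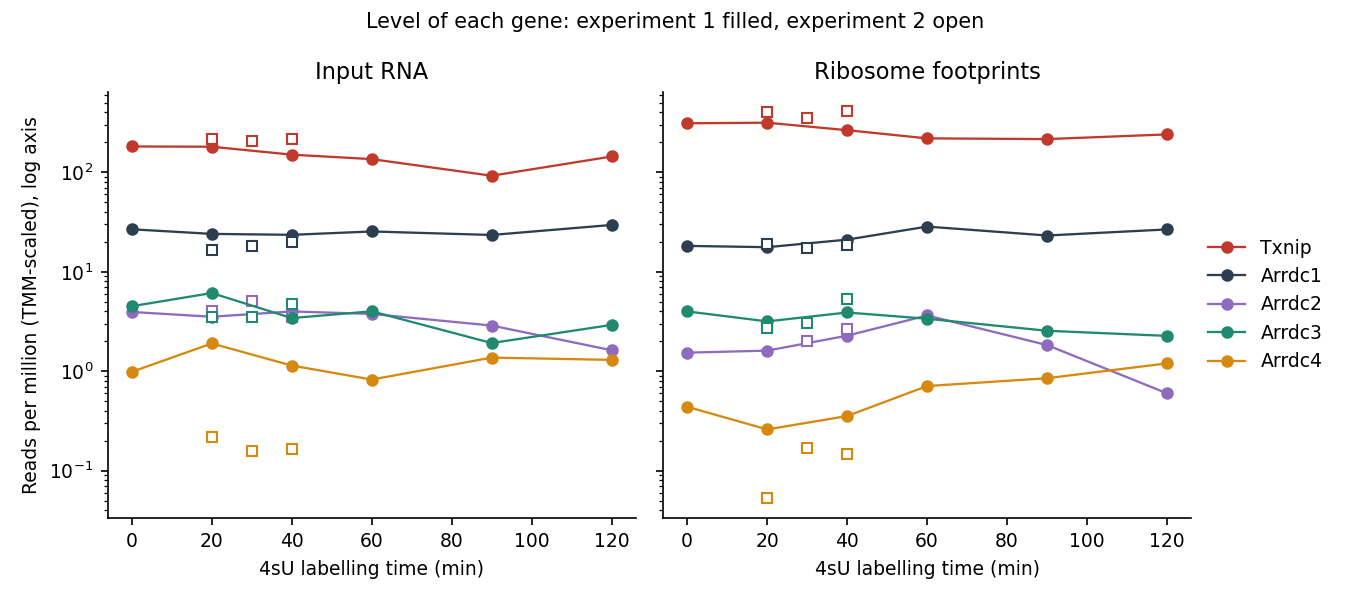
Level of the 5 genes in TMM-scaled CPM (log axis) against minutes of 4sU, in input (left) and footprints (right). Each point is 1 library, filled and joined for experiment 1, open for experiment 2; Txnip and Arrdc1 lie above the others throughout, Arrdc2 and Arrdc3 overlap, Arrdc4 lies above Arrdc2 in the 120 min footprints, and Arrdc4 is lower in experiment 2 than in experiment 1.

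Most Txnip reads carried label by the end of the time course. In experiment 1 the share of Txnip input reads with a conversion was 0.309% (4 of 1293 reads) without label, 14.6% at 20 min, 38.1% at 40 min, 54.5% at 60 min, 58.2% at 90 min and 71.6% at 120 min (636 of 888 reads, 95% Wilson interval 68.6% to 74.5%). Experiment 2 gave 9.89% at 20 min, 23.7% at 30 min and 27.4% at 40 min, from 6587 to 11735 reads per library. At the shared times the shares of experiment 2 were below those of experiment 1, outside their Wilson intervals, which cover counting error only. The shares were 8.88 to 17.6 times the share of all reads in the same library, with a median of 13.8 over the 8 labelled input libraries.

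Footprints of Txnip showed the same steep course at a lower height. Their converted share in experiment 1 was 0.395% without label, then 10.2%, 31.7%, 45.4%, 55.7% and 61.8% at 20, 40, 60, 90 and 120 min, and 5.60%, 13.2% and 16.9% at 20, 30 and 40 min in experiment 2. In each of the 8 labelled lysates the footprint share was below the input share. On the scale of log2 odds the footprints stood 0.64 below input (value -0.64, SE 0.20, edgeR on converted and unconverted reads), with single lysates between -1.03 and -0.15. The median over 8276 genes was -0.79, and Txnip ranked 2860 from the highest among them. Because Txnip was chosen for its labelling, no test is attached to these values.

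**Figure D2:**
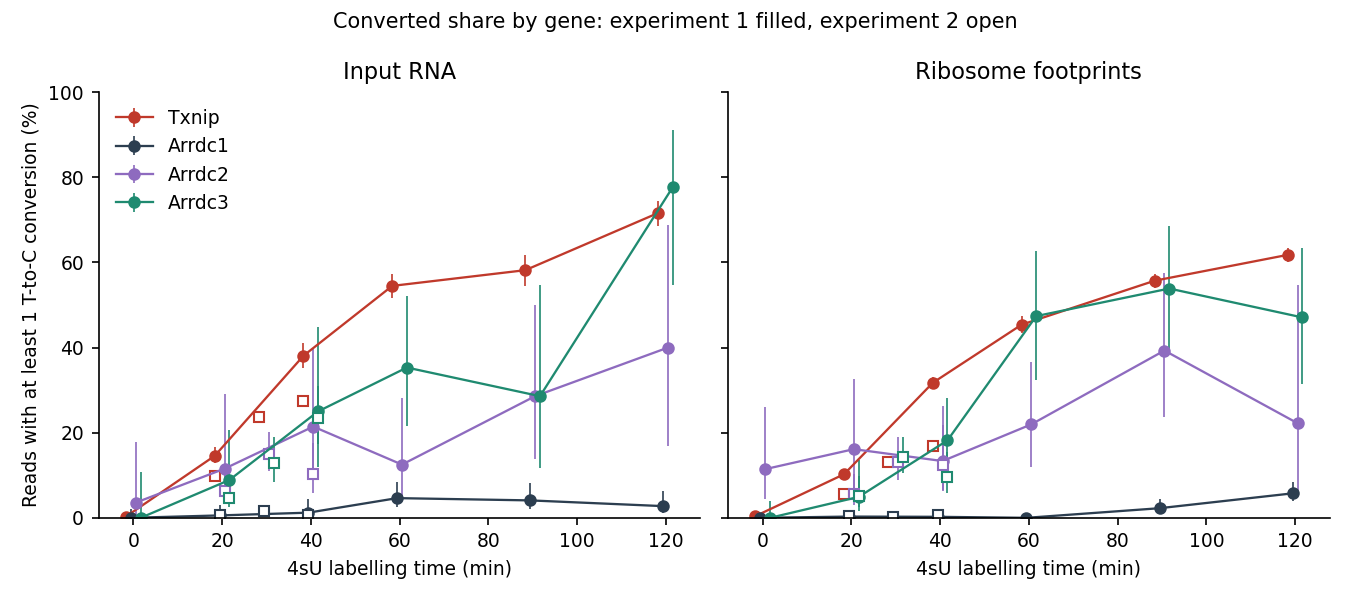
Share of reads with at least 1 T-to-C conversion (percent) against minutes of 4sU for Txnip, Arrdc1, Arrdc2 and Arrdc3, in input (left) and footprints (right), with 95% Wilson intervals; filled points joined by lines are experiment 1, open points experiment 2, and genes are shifted sideways slightly. Txnip reaches 71.6% in input and 61.8% in footprints at 120 min, Arrdc1 stays at or below 5.75%, and the intervals of Arrdc2 and Arrdc3 are wide.

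Set against all genes, Txnip ranked at the top of the labelling scale. Relative labelling, the log2 odds of conversion minus the median gene of the same library, averaged 4.56 ± 0.19 (SD, n = 8) in input and 4.85 ± 0.35 in footprints. These are rank 6 and rank 14 of 8276 genes. Within single input libraries the rank lay between 10 and 42. The T content of its reads was near that of other genes, with 6.88 T positions per input read against a median of 6.58 over 9396 genes.

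A read can show label only where it holds a T position, so a converted share depends on the T content of the reads. At 120 min 54.9% of Txnip input reads with at most 3 T positions were converted (39 of 71 reads), 66.6% of those with 4 to 6, 76.2% of those with 7 to 9 and 83.3% of those with 10 or more (80 of 96). The order was the same in footprints, with 35.7%, 57.1%, 65.3% and 72.1%. Without label, Txnip reads with 10 or more T positions were converted in 0 of 163 input reads (Wilson interval up to 2.30%). In footprints these were 7 of 721 reads, or 0.971%. At 120 min reads rich in T thus showed more label than reads poor in T from the same library. The order did not hold throughout, since input at 20 min of experiment 1 had 16.8% for 7 to 9 T positions and 12.2% for 10 or more. The number of conversions per read followed the labelling time as well. Of the converted Txnip input reads 82.5% held 1 conversion and 17.5% held 2 at 20 min of experiment 1, and at 120 min 52.0% held 1, 35.8% held 2 and 12.1% held 3, the highest number the tables record.

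The unlabelled, older pool of Txnip mRNA was small at the end of the time course. Unconverted input reads stood at 181 CPM without label and at 154, 93.2, 61.8, 38.6 and 40.9 CPM after 20, 40, 60, 90 and 120 min in experiment 1. That leaves 22.6% of the unlabelled level at 120 min, and 29.7% in footprints, where the unconverted level was 310 CPM without label and 92.0 CPM at 120 min. Converted input reads stood at 26.3, 57.3, 73.9, 53.7 and 103 CPM over the same times. Each of these values comes from 1 library, and labelled molecules whose reads carry no conversion are counted as unconverted.

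**Figure D3:**
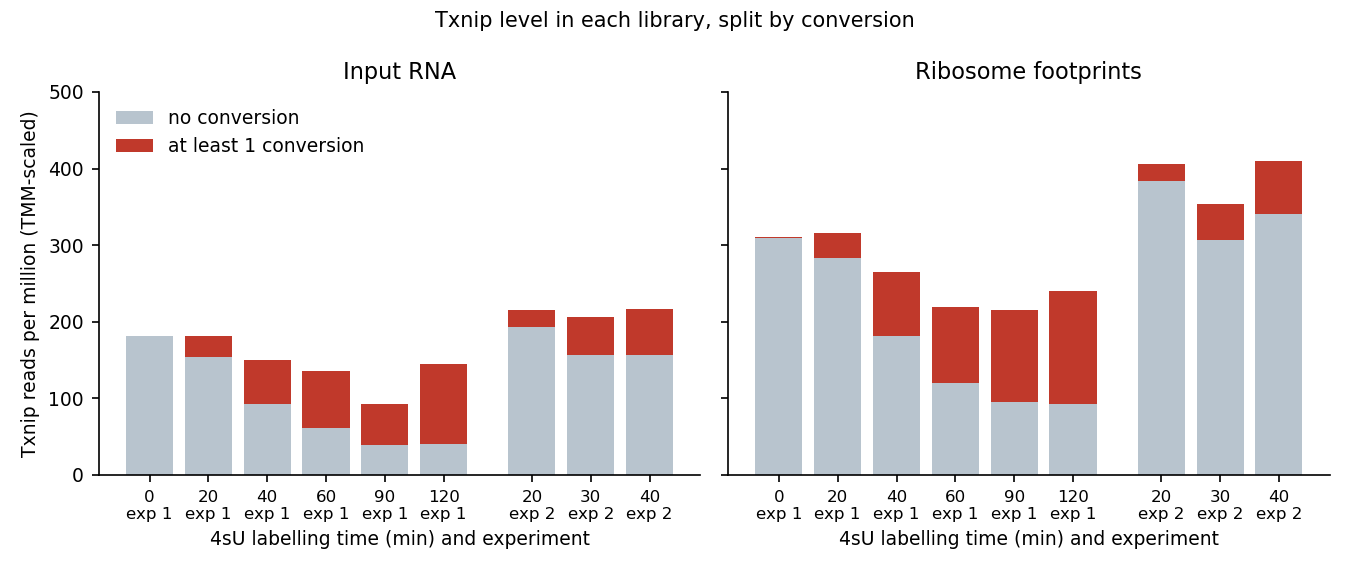
Txnip level in each of the 18 libraries in TMM-scaled CPM, split into reads without conversion (grey) and with at least 1 conversion (red), by minutes of 4sU and experiment, input left and footprints right. In experiment 1 the grey part is 181 CPM without label and 40.9 CPM at 120 min in input, and every footprint bar is taller than the input bar of the same lysate.

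Total Txnip level in experiment 1 was lower at 60 to 120 min than without label, but no fitted slope in input passed the threshold. The size of the slope depended on the handling of experiments and on single lysates. Input levels of experiment 1 were 182, 181, 150, 136, 92.4 and 144 CPM at 0, 20, 40, 60, 90 and 120 min, and those of experiment 2 were 215, 206 and 216 CPM at 20, 30 and 40 min. Every library of experiment 2 lay above every library of experiment 1. The fitted slope in input was -0.42 log2 units per hour (SE 0.17, edgeR adjusted p = 0.145). With experiment as a block it was -0.29 (edgeR adjusted p = 0.0969), and in experiment 1 alone it was -0.29 (adjusted p = 0.138). The slope was -0.78 without the 120 min lysate and -0.28 without the 90 min lysate. None of these values passed the threshold. Among the 4 members with a slope fit, none passed this test in input, where 6.98% of 9269 genes did and 6.51% did with a falling slope. Without the 120 min lysate 0 genes passed in input and 67 in footprints, against 647 and 2062 with it.

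In footprints the Txnip levels were 311, 315, 265, 220, 216 and 241 CPM in experiment 1 and 406, 354 and 410 CPM in experiment 2, again with no overlap between the experiments. Of the 4 members fitted 1 passed the footprint test, Arrdc1, against 21.3% of 9664 genes, 14.2% with a falling and 7.13% with a rising slope. For Txnip the slope of -0.40 per hour (SE 0.14) missed the threshold at an adjusted p of 0.0527. With experiment as a block it was -0.26 with an adjusted p of 0.0250, and in experiment 1 alone it was -0.30 with an adjusted p of 0.0210. Without the 120 min lysate the adjusted p was 0.236. A change with time and an effect of 4sU cannot be told apart in this design, because the only lysate without 4sU was that of 0 min.

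Txnip made up a larger share of the footprints than of the input in every lysate. The log2 ratio of footprint to input level was 0.77, 0.80, 0.82, 0.69, 1.22 and 0.74 in the lysates of experiment 1 in order of time, and 0.92, 0.78 and 0.92 in those of experiment 2. All 9 ratios were above 0, and the highest was that of the 90 min lysate, which had the lowest input level. The fitted log2 ratio was 0.85 (SE 0.10, edgeR adjusted p = 1.67e-06), a 1.81-fold higher share of footprints than of input. That placed Txnip at rank 1183 of 10110 genes, of which 35.8% were higher in footprints and 40.4% lower, 76.2% in all. The median gene stood at -0.04.

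The ratio did not move with labelling time in a way the test could detect. Its change was 0.02 log2 units per hour (SE 0.21, edgeR adjusted p = 1). None of the 5 members passed that test, nor did any other gene (0% of 10110), while 241 genes, or 2.38%, and 0 members had an unadjusted p under 0.05. DESeq2's Wald test called 9 genes. Split by conversion, the log2 ratio of footprint to input level was 1.04 ± 0.14 (SD, n = 8 labelled lysates) for unconverted Txnip reads. For converted reads it was 0.40 ± 0.37, which restates the lower converted share in footprints.

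**Figure D4:**
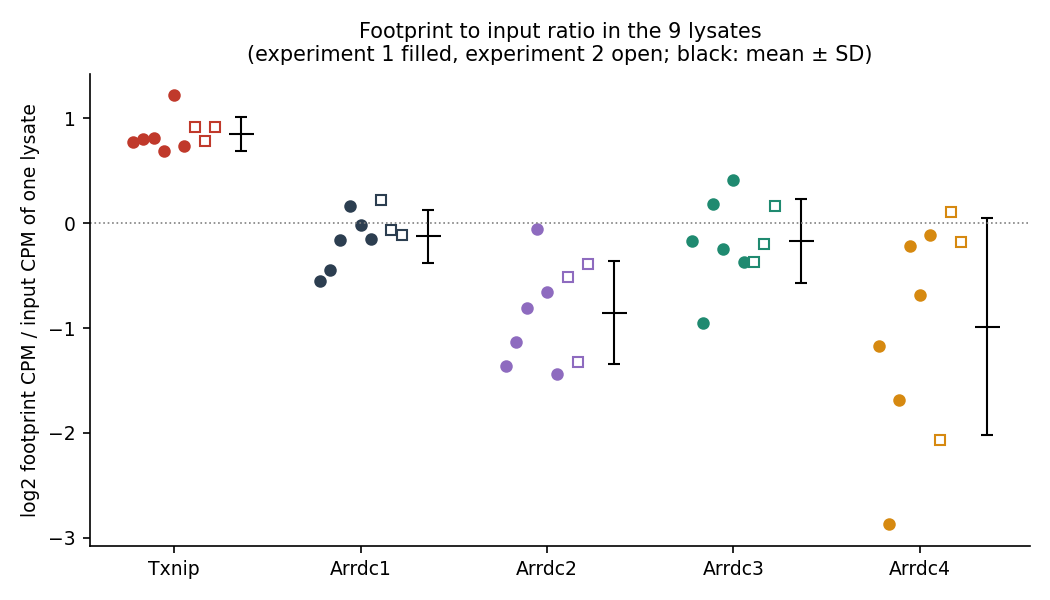
Log2 ratio of footprint to input level of each gene in the 9 lysates, 1 point per lysate (filled for experiment 1, open for experiment 2, in order of labelling time within each), with the mean ± SD in black. All 9 points of Txnip lie above 0 and all 9 of Arrdc2 below it; those of Arrdc1, Arrdc3 and Arrdc4 lie on both sides.

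The genes with a labelling course most like that of Txnip, by Euclidean distance of relative labelling over the 8 labelled input libraries, were Lcmt2, Dusp2, Klf10, Tagap and Ier3. Their distances were 0.754 to 1.26, against a median of 13.2 over all genes kept. Dusp2, a phosphatase of MAP kinases, had 65.2% converted reads at 120 min, and Klf10, a zinc-finger transcription factor, 68.8%. Tagap, a GTPase-activating protein, had 66.7%, and Ier3, an immediate-early gene, 58.2%. Lcmt2 had 74.6% at 120 min but also 6.02% in the unlabelled library, and it overlaps Adal. Like Txnip, Klf10 (log2 ratio 0.45, edgeR adjusted p = 0.00342) and Dusp2 (0.40, adjusted p = 0.0135) were higher in footprints. Tagap was lower (-0.71, adjusted p = 8.33e-05), and Lcmt2 (0.21) and Ier3 (0.38) did not pass the test.

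**Figure D5:**
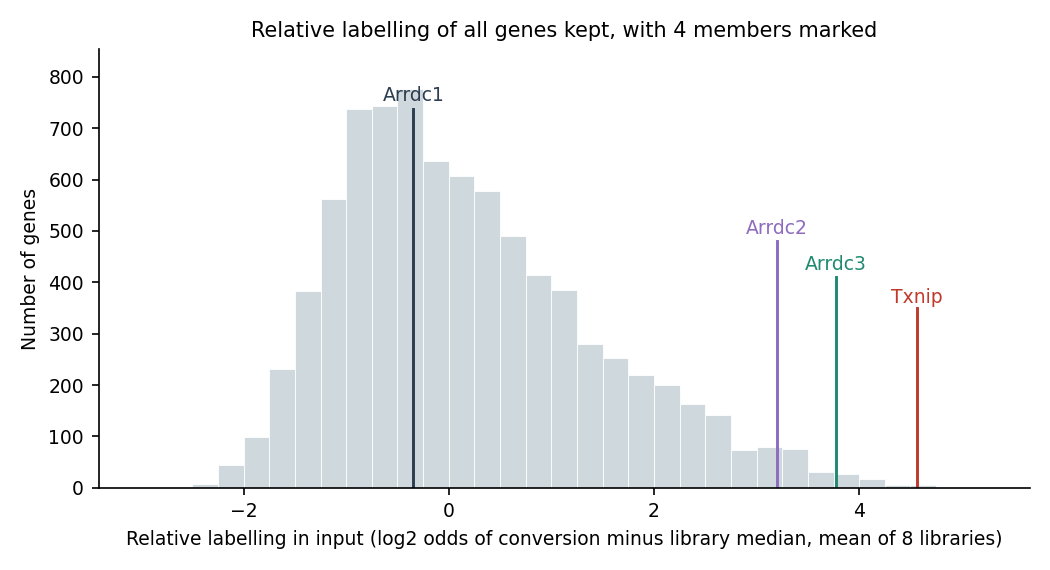
Number of genes by relative labelling in input (log2 odds of conversion, centred on each library's median gene, mean of 8 labelled libraries) for 8276 genes, with vertical lines at Txnip (4.56), Arrdc3 (3.77), Arrdc2 (3.20) and Arrdc1 (-0.35); line heights carry no value. Txnip, Arrdc3 and Arrdc2 lie in the right tail and Arrdc1 in the main body.

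Arrdc3 (ENSMUSG00000074794; chr13:80883384-80896042, plus strand) had the highest labelling after Txnip among the members. Its converted share in input was 0% (0 of 32 reads, which allows up to 9.38%) without label and 8.89%, 25.0%, 35.3%, 28.6% and 77.8% at 20, 40, 60, 90 and 120 min in experiment 1. The last value rests on 14 of 18 reads and has a Wilson interval of 54.8% to 91.0%. Experiment 2, with 145 to 192 reads per library, gave 4.69%, 12.8% and 23.4% at 20, 30 and 40 min. Relative labelling in input was 3.77 (SE 0.21, limma adjusted p = 5.61e-08), above the median in 8 of 8 libraries and at rank 55 of 8276. Of the 3 members with a test of labelling, 2 were higher than the median gene, Arrdc3 and Arrdc2, against 33.5% of all genes, and 0 were lower, against 34.0% (67.5% of genes passed in either direction).

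In Arrdc3 footprints the converted share was 0% without label (0 of 91 reads, which allows up to 3.30%) and 4.92%, 18.2%, 47.4%, 53.8% and 47.1% at 20, 40, 60, 90 and 120 min, and 5.16%, 14.2% and 9.52% in experiment 2. Footprints and input did not differ in conversion by a detectable amount (log2 odds ratio -0.27, SE 0.36, edgeR adjusted p = 0.499), with 4 of 8 lysates below 0. With single lysates left out the value ranged from -0.44 (without 90 min) to -0.022 (without 40 min of experiment 2). Its level was 1.92 to 6.11 CPM in input and 2.26 to 5.34 CPM in footprints, and the log2 ratio of -0.19 (SE 0.15, adjusted p = 0.272) had single lysates from -0.95 to 0.41. The input slope of -0.49 per hour had an adjusted p of 0.179. For footprints the slope was -0.34 with an adjusted p of 0.253, and in experiment 1 alone it was -0.43 with an adjusted p of 0.0485. Its nearest genes in labelling were Jrkl, Zbtb6 and Sertad1, with 64.9% to 74.1% converted reads at 120 min.

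Arrdc2 (ENSMUSG00000002910; chr8:70835129-70839720, minus strand) also had a converted share above that of most genes, but some of its reads were converted without label. It was the member with significantly fewer footprints than its input level gives. Its converted share in input was 11.5%, 21.4%, 12.5%, 28.6% and 40.0% at 20, 40, 60, 90 and 120 min of experiment 1, each from 10 to 32 reads, and 6.36%, 15.0% and 10.4% in experiment 2 from 106 to 227 reads. Without label 1 of 28 input reads was already converted (3.57%, Wilson interval 0.633% to 17.7%). Only the labelled input shares of 21.4%, 28.6% and 40.0% lay above that interval, so the others cannot be told apart from conversion without label. In unlabelled footprints 4 of 35 reads were converted (11.4%, Wilson interval 4.54% to 26.0%), far above the 0.298% of all footprint reads. Relative labelling in input was 3.20 (SE 0.25, limma adjusted p = 7.17e-07), above the median in 8 of 8 libraries and at rank 177. With each gene's share in the unlabelled input library subtracted first, here 1 of 28 reads, it was 3.01 (limma adjusted p = 1.35e-05). The higher share of unlabelled footprints was not subtracted. Labelled footprints of Arrdc2 held 16.1%, 13.3%, 22.0%, 39.3% and 22.2% converted reads in experiment 1, and 5.59%, 13.1% and 12.3% in experiment 2. All but the 39.3% at 90 min lay within the Wilson interval of the unlabelled footprints. Footprints and input were not detectably different in conversion (0.08, SE 0.46, edgeR adjusted p = 0.868).

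The log2 ratio of footprint to input level of Arrdc2 was -1.36, -1.13, -0.81, -0.05, -0.65 and -1.44 in the lysates of experiment 1 and -0.52, -1.33 and -0.39 in those of experiment 2. All 9 were below 0, with the 60 min lysate close to it. The fitted ratio was -0.81 (SE 0.16, edgeR adjusted p = 0.000336), a 1.75-fold lower share of footprints than of input. Txnip and Arrdc2 thus lay on opposite sides, and the remaining 3 members did not pass the test, so 2 of 5 passed, against 76.2% of 10110 genes. The Arrdc2 input level was 1.62 to 5.07 CPM, lowest at 120 min, with a slope of -0.58 per hour (SE 0.19, adjusted p = 0.0864), or -0.33 (adjusted p = 0.740) without the 120 min lysate. Hist1h4n, Sdhaf1 and Tlr9 were nearest to it in labelling, and Sdhaf1 and Tlr9 also held 11.5% and 16.7% converted reads without label.

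Arrdc1 (ENSMUSG00000026972; chr2:24925352-24935252, minus strand) was labelled least among the members kept for the labelling measures. It did not differ detectably from the median gene. Its converted share in input was 0% without label (0 of 190 reads, which allows up to 1.58%) and 0.565%, 1.21%, 4.63%, 4.09% and 2.75% at 20, 40, 60, 90 and 120 min, and 0.668%, 1.60% and 0.657% in experiment 2. Relative labelling was -0.35 (SE 0.26, limma adjusted p = 0.251), rank 4953 of 8276. Only 48 of 3228 labelled input reads and 42 of 4874 labelled footprint reads were converted, 23 of the latter in the 120 min library. Stx16 and Sec63 were among the genes nearest to it, with 5.11% and 4.25% converted reads at 120 min.

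Conversion of Arrdc1 was lower in footprints than in input, with a log2 odds ratio of -1.18 (SE 0.44, edgeR adjusted p = 0.0159) and 7 of 8 lysates below 0. That is 1 of 3 members tested, where 59.5% of 8276 genes passed and 59.4% were lower. The call was lost without the 60 min lysate (-0.82, adjusted p = 0.115), without the 30 min lysate (-0.76, adjusted p = 0.153) and in experiment 1 alone (-0.72, adjusted p = 0.243). At 120 min the order was opposite, with 5.75% in footprints and 2.75% in input, from 23 and 5 converted reads.

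The Arrdc1 input level was 23.4 to 29.6 CPM in experiment 1 and 16.4 to 20.0 CPM in experiment 2, without overlap. Its footprints were at 18.2, 17.7, 21.0, 28.5, 23.1 and 26.6 CPM at 0, 20, 40, 60, 90 and 120 min, and at 19.2, 17.3 and 18.5 CPM in experiment 2. The footprint slope of 0.31 per hour (SE 0.10, edgeR adjusted p = 0.0428) passed the test, as did 7.13% of 9664 genes in that direction. It was 0.27 with an adjusted p of 0.0663 with experiment as a block, and 10 of 14 alternatives lost the call, with an adjusted p of up to 0.259 without the 120 min lysate. The log2 ratio of footprints to input was -0.12 (SE 0.09, edgeR adjusted p = 0.226), with single lysates from -0.55 to 0.22.

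Arrdc4 (ENSMUSG00000042659; chr7:68736995-68749241, minus strand) was at the edge of detection, with 3 to 18 reads per library. Its input level was 0.824 to 1.90 CPM in experiment 1 and 0.156 to 0.220 CPM in experiment 2, and its footprint level 0.260 to 1.20 CPM and 0.0525 to 0.168 CPM. Both materials were thus lower in experiment 2, without overlap. The log2 ratio of footprints to input was -0.85 (SE 0.50, edgeR adjusted p = 0.136). With lysate as a block it was -0.93 with an adjusted p of 0.0129, and with experiment as a block it was -0.93 with an adjusted p of 0.00992. Over the labelled libraries 4 of 71 input reads and 5 of 72 footprint reads were converted, below the read minimums of the labelling and slope tests, so neither is given.

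Counts of genes higher, lower, rising or falling in the lists that follow are of genes past an adjusted p of 0.05, and differences between lists were not tested. Slopes in the lists come from the fit with no term for experiment. Without the 120 min lysate 0 genes passed in input, so no input slope called below held, and far fewer genes passed in footprints. Ratios in the lists are log2 ratios of footprint to input level. Of the 9 listed NEDD4-family ubiquitin ligases, which the Arrdc proteins recruit, 6 were tested for the ratio. Of these 5 were lower in footprints and 1 higher, against 40.4% and 35.8% of all genes, with a median log2 ratio of -0.79 against -0.04 over all genes. Wwp1 stood at -2.27 (SE 0.13), Smurf2 at -2.10 (SE 0.10), Smurf1 at -0.99 (SE 0.11) and Itch, the ligase known to act on Txnip itself, at -0.58 (SE 0.08). A falling footprint slope passed the test in 3 of 6 genes (14.2% of all genes), Smurf2 (-0.70 per hour), Smurf1 (-0.45) and Itch (-0.37), and a falling input slope in 1 of 5 (6.51% of all genes), Smurf2 (-0.42). Labelling above the median gene passed in 2 of 6 (33.5% of all genes), Nedd4l (2.68) and Smurf2 (0.78), and labelling below it in 1 (34.0% of all genes), Wwp2 (-1.15).

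Among ESCRT and vesicle partners 7 of 9 were higher in footprints and 1 lower, against 35.8% and 40.4% of all genes, and the median ratio was 0.45. Pdcd6ip (ALIX), which bridges cargo to ESCRT, stood at 1.14 (SE 0.12), the ATPases Vps4b at 0.65 (SE 0.07) and Vps4a at -0.63 (SE 0.09), and Tsg101, the partner of Arrdc1, at 0.41 (SE 0.06). In labelling 5 of 9 were below the median gene and 2 above it, against 34.0% and 33.5% of all genes, with a list median of -0.73 against -0.04 over all genes. Vps28 stood at -2.70 and Vps37b at 2.29, so the list was not uniform. Footprint slopes fell in 2 of 9, Stam (-0.40) and Vps37b (-0.50), and rose in 1, Vps28 (0.26), against 14.2% and 7.13% of all genes, and none of 9 input slopes passed the test.

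Among genes of the Mondo and Max network, to which the regulators of Txnip belong, 6 of 10 tested were higher in footprints and 2 lower, against 35.8% and 40.4% of all genes, with a median of 0.67. Myc stood at 2.63 (SE 0.27), Max at 1.30 (SE 0.09), Mycn at 1.02 (SE 0.08) and Mxi1 at -1.67 (SE 0.10). Mlx, the obligate partner of MondoA, was labelled less than the median gene (-1.15, limma adjusted p = 0.000532), whereas Myc (2.93), Mnt (2.46) and Mxd1 (2.22) were labelled more. In all 4 of 8 genes were above and 3 below, against 33.5% and 34.0% of all genes. Footprint slopes fell in 2 of 9 genes (14.2% of all genes), Myc (-0.91 per hour) and Mlxip, which encodes MondoA (-0.35, adjusted p = 0.0298). None of 7 input slopes passed the test.

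In the thioredoxin system, the direct target of Txnip, 7 of 10 genes were higher in footprints and 2 lower, against 35.8% and 40.4% of all genes, with a median of 0.60. Txn1, the cytosolic thioredoxin, stood at 1.53 (SE 0.07), Rrm2 at 1.67 (SE 0.10) and Rrm1 at 0.82 (SE 0.07), both subunits of ribonucleotide reductase, and Txnrd1, the cytosolic thioredoxin reductase, at -0.68 (SE 0.06). Txn1 (-0.57) and Txn2 (-1.05) were labelled less than the median gene, and Rrm2 (0.97) more, with 3 of 7 below and 2 above, against 34.0% and 33.5% of all genes. Footprint slopes rose in 3 of 10 genes (7.13% of all genes), Txn1 (0.22), Txn2 (0.20) and Msrb1 (0.32), and none of 10 input slopes passed the test.

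For glucose uptake and its first steps, 5 of 10 genes were higher in footprints and 2 lower, against 35.8% and 40.4% of all genes, with a median of 0.38. Hk1, a hexokinase, stood at 1.23 (SE 0.15), Slc2a1, which encodes GLUT1, at 0.97 (SE 0.13), G6pc3 at 0.65 (SE 0.09) and Slc2a8 at -1.12 (SE 0.15). Hk2, the inducible hexokinase, was labelled more than the median gene (2.03), as was Pfkfb3 (1.45), while Hk1 (-1.05) and Hk3 (-1.74) were labelled less, and in all 4 of 9 were above and 3 below, against 33.5% and 34.0% of all genes. Falling slopes passed the test for Hk2 in input (-0.92 per hour, edgeR adjusted p = 0.0426) and in footprints (-0.87, adjusted p = 0.0167). In footprints those of Pfkfb3 (-0.87) and Slc2a3 (-0.44) passed too. These were 1 of 10 input slopes and 3 of 10 footprint slopes, where 6.51% and 14.2% of all genes fell.

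Among other genes with an arrestin fold the beta-arrestins Arrb1 (-1.91, limma adjusted p = 0.00103) and Arrb2 (-1.21, adjusted p = 0.00108) were labelled less than the median gene, and 0 of 5 tested genes were labelled more, against 34.0% and 33.5% of all genes. Of the 5, 3 were higher in footprints (35.8% of all genes) and 0 lower, Vps26a (0.58), Dscr3 (0.48) and Vps26b (0.17), all retromer or retriever subunits, and no input or footprint slope passed the test.

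Across all 8276 genes conversion in footprints against input was lower in 59.4% and higher in 0.145%. In the lists it was lower in 5 of 6 NEDD4-family genes, 5 of 9 ESCRT genes, 2 of 8 Mondo and Max genes, 5 of 7 thioredoxin genes, 6 of 9 glucose genes and 2 of 5 arrestin-fold genes, and higher in none. The change of the ratio over time passed the test in no gene of any list. Which genes of these lists share regulators or partners with the 5 members is background knowledge, and nothing was tested about it.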

How the data were processed

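The values are the authors' deposited counts, raw reads per gene and library, split into columns by T positions (0 to 20) and T-to-C conversions (0 to 3). That meaning was read from the column names and values, since conversions outnumbered T positions in 0 reads. The submitters' processing notes name Bowtie 0.12.8 and mm10. The sources used here do not say how reads were counted (program, annotation, strand, part of the gene). Input was about 10% of the lysate per the labels' protocols, fragments of 25 to 35 nt were selected, ribosomal RNA was depleted and a spike-in was added, which was not used here. Alkaline fragments of whole mRNAs are thus compared with protected fragments of translated regions.

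Footprints were compared with input by edgeR 4.0.16 quasi-likelihood tests (R 4.3.3) with labelling time as a factor, TMM scaling and edgeR's low-count filter. Slopes used hours of 4sU. Conversion used edgeR's design for methylation counts over the 16 labelled libraries, for genes that averaged 50 or more reads in these libraries and had 50 or more converted reads in all. Relative labelling used limma 3.58.1 on log2 odds with a pseudocount of 0.5, and no background was subtracted. Tests were two-sided, and the call was a Benjamini-Hochberg adjusted p under 0.05 over all genes tested. Scripts were tested on simulated data. Figures used matplotlib 3.10.9.

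The members and lists were chosen with earlier results of these data known. The 5 members are always named, each list gives up to 4 called genes per comparison by smallest adjusted p, and the nearest genes are 5 for Txnip and 3 for each Arrdc gene kept. Some genes under this rule are not reported here. Mlx, Tsg101 and the Txn genes outside that rule were named for their roles. Input and footprints of 1 lysate come from the same cells. With each material's mean removed, the correlation within a lysate was 0.113 to 0.674, and for 3 of 9 lysates the best match was their own partner. Alternatives were DESeq2 1.42.0 (size factors and Wald test), no filter, a replicate block for experiment or for lysate, each experiment alone, single lysates left out, a mean of at least 200 reads, a pseudocount of 2, at least 2 conversions, conversions per T, subtraction of the unlabelled share and omission of mitochondrially encoded genes. Of these, experiment 2 alone, the subtraction and the omission were added after seeing the data. Promoter sequences and the pair of boxes were looked up after the values were seen.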

Additional observations from a re-analysis of the deposited data

How the results depend on the processing

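Of the values of single members, 329 alternatives stayed the same. Another 9 passed the threshold where the reported value did not, 13 missed it where the reported value passed, 4 turned sign and 3 moved by more than the spread. Staying the same meant keeping the direction and the side of the threshold. For Txnip labelling and conversion, which have no test, it meant keeping the direction and moving by less than the spread. Ratios in this section are log2 values. The log2 footprint ratio of Txnip ranged from 0.81 to 0.92 and that of Arrdc2 from -0.90 to -0.72 over 17 alternatives each, all past the threshold. Relative labelling ranged from 2.71 to 3.39 for Arrdc2 and from 3.42 to 4.08 for Arrdc3 over 13 alternatives each, all past it. Signs turned for the Arrdc2 footprint slope without the 120 min lysate (0.29, range -0.56 to 0.29 with single lysates left out), the Txnip ratio change without the 90 min lysate (-0.055, range -0.055 to 0.21), Arrdc2 conversion without the 60 min lysate (-0.022, range -0.022 to 0.18) and the Arrdc1 ratio in experiment 2 alone (0.015). These 4 values missed the threshold both as reported and in the alternative. Txnip labelling was 4.08 as conversions per T position and 4.85 with the unlabelled share subtracted, and its conversion in footprints against input was -1.09 with at least 2 conversions per read. Among values that missed the threshold, the range with single lysates left out was, for the Arrdc1 input slope, 0.036 to 0.32, for the Arrdc1 ratio -0.17 to -0.064, for Arrdc1 labelling -0.45 to -0.13, for the Arrdc3 input slope -0.68 to -0.32, for the Arrdc3 footprint slope -0.41 to -0.19 and for the Arrdc3 ratio -0.24 to -0.10. The cause of these moves was not tested.

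Counts of genes called moved by over 1.5 times as follows. Input slopes were 1309 with DESeq2's Wald test and 1540 with experiment as a replicate block, against 647, and 0 to 838 with single lysates left out, with 0 without the 120 min and 35 without the 90 min lysate. Footprint slopes were 67 to 2602 with single lysates left out, with 67 without the 120 min and 1033 without the 90 min lysate. The change of the ratio was called in 9 genes with DESeq2's Wald test, 5 with experiment as a replicate block, 3 in experiment 1 alone, 1 with lysate as a replicate block and 0 to 6 with single lysates left out, against 0. Conversion calls were 2290 with at least 2 conversions and 2021 in experiment 1 alone, against 4924. With lysate as a replicate block the footprint ratio was called in 7979 genes, against 7699, and among members that block changed the call of Arrdc4 and no other. Slopes and labelling of Arrdc4, which was under the read minimums, were not computed under the alternatives. Arrdc2, Arrdc3 and Arrdc4 have few reads per library, and their shares carry the widest intervals.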
